A study of Mus musculus with 4 samples.

Results

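Cytosolic ribosomal protein genes were measured in vascular smooth muscle cells (VSMCs) in culture, the cells that make the artery wall contract. Members were set by a rule on names, as genes with an Rpl, Rplp or Rps symbol of the usual form or Rpsa. The rule was set with earlier results of these data known, and it gave 83 of the 25965 genes in the table. Of these, 77 encode core proteins of the ribosome, 46 of the large and 31 of the small subunit, and 6 are paralogs (Rpl3l, Rpl7l1, Rpl10l, Rpl22l1, Rpl39l and Rps27l). The source was the medial layer of aortas of C57Bl/6 males, wild type and 8 to 14 weeks old. Cells were grown in DMEM with FCS and passaged 3 to 5 times, and all 4 libraries form 1 group. No treated or uncultured group was compared, and the labels do not say whether the libraries came from separate animals, so the spread between them may be technical.

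The cytosolic ribosome holds its proteins in near equal amounts. The mRNAs of its genes typically start with a C followed by a run of pyrimidines. Through this 5′ terminal oligopyrimidine (TOP) motif, mTOR signalling controls their translation. Mammalian genomes also hold many processed pseudogenes of these genes, intronless copies of the mRNA that were inserted elsewhere. A short read from such a sequence can match several places equally well.

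The following coding sequences show how alike a ribosomal protein gene and its copies can be. They are GENCODE M21 sequences on GRCm38, printed 5′ to 3′ in lower case, and capitals mark bases that differ from the first sequence of each set. Rps27 and its retrogene Rps27rt, listed in the table as Gm9846, had 0 differences over 252 bases, whereas the paralog Rps27l had 60 differences, an identity of 76.2%.
Rps27: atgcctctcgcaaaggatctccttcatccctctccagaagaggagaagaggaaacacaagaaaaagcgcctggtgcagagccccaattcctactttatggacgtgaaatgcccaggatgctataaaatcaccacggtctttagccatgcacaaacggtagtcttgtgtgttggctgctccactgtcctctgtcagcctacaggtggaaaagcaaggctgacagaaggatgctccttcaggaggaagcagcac
Rps27rt: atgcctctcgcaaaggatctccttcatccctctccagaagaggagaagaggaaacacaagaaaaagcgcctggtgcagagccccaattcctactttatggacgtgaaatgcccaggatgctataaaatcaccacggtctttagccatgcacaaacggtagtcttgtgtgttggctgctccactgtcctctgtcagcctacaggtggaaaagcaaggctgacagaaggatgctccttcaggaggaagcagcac
Rps27l: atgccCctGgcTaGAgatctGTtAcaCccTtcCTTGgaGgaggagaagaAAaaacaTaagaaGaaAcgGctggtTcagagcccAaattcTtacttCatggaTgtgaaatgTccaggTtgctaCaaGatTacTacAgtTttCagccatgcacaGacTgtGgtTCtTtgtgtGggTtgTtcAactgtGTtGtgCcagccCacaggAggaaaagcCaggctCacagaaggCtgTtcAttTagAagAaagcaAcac

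The first 120 of 480 coding bases of Rpl29, the core gene with the lowest level, are shown with those of 2 of its copies. Gm6344 had 0 differences and Gm13841 had 1. Neither is among the copies of Rpl29 that had an entry of their own in the table.
Rpl29: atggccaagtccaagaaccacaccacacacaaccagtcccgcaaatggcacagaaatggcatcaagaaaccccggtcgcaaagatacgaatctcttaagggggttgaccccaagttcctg
Gm6344: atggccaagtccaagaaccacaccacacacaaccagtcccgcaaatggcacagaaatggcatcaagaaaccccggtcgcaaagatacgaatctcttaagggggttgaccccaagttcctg
Gm13841: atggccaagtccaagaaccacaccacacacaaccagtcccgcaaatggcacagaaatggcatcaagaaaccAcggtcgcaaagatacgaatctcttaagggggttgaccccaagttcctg

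Rpl39 and its paralog Rpl39l are shown as a pair in which the paralog had few reads and shared no 50-base window with another gene, with 23 differences over 153 bases and an identity of 85.0%.
Rpl39: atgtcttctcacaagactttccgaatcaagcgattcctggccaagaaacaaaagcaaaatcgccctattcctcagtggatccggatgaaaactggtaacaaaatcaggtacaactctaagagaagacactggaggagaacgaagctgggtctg
Rpl39l: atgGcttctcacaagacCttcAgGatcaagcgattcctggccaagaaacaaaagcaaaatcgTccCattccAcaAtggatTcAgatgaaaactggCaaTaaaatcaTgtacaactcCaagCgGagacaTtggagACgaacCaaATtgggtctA

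All 77 core genes were detected, and they took a large part of the library. A gene was called detected where its deposited value was 0 or more on the log2 scale in each of 4 libraries, which 80 of 83 members reached, beside 47.4% of all genes. The 3 others were paralogs. Members took 4.93%, 7.57%, 8.03% and 7.10% of the reads on genes in libraries 1 to 4 (6.91% ± 1.37, SD, n = 4), and library 1 stood below the other 3. The 10 highest members held 42.3% to 54.7% of the members' reads. The recovered reads on genes ranged from 40342561 in library 3 to 56793195 in library 4. Of the smooth muscle markers, 7 of 7 were detected. Of the endothelial, leukocyte and adventitial fibroblast markers, 3 of 5, 2 of 5 and 4 of 5 were detected, and their levels by library are given beside the differences between libraries.

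Although the core proteins are needed in like amounts, the reads assigned to their genes spanned 3 orders of magnitude. Per kilobase (kb) of annotated exon, a scale on which genes can be compared, the mean log2 level ran from 2.84 for Rpl29 to 13.67 for Rps15, a ratio of 1816. The median of the members was 8.50 on this scale, against 2.96 for all detected genes with a known length. The genes at the top were Rps15, Rpl41, Rplp1, Rpl13a, Rpl36, Rpl19, Rpl8 and Rpl7. Rps15, a protein of the small subunit head, had 119317, 244094, 287783 and 293647 reads in libraries 1 to 4. Rpl13a, a large subunit protein also known from the interferon-dependent GAIT complex, had 198452, 367694, 328055 and 347181 reads. Library 1 was the lowest for both genes. The stalk proteins, which recruit elongation factors to the ribosome, stood high, at 11.01 for Rplp0, 12.50 for Rplp1 and 10.94 for Rplp2 per kb.

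**Figure D1:**
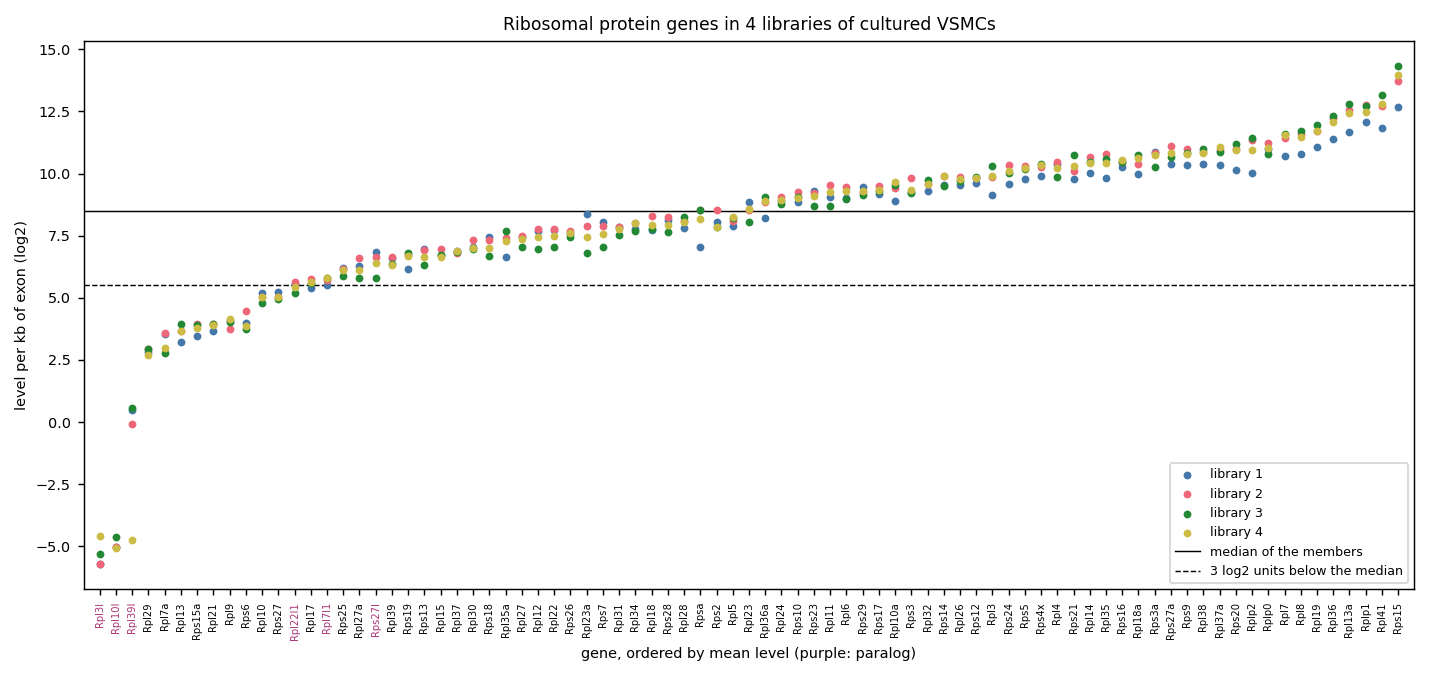
Level of 81 of the 83 members per kb of exon (log2, vertical axis) in each of 4 libraries (points), ordered by mean. The solid line is the members' median of 8.50 and the dashed line lies 3 log2 units below it. Genes without reads in a library are drawn at the table's floor value. The points of a gene lie close together compared with the range between genes.

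Far below the others lay 14 members, set as more than 3 log2 units under the members' median per kb. They were 10 core genes, among them Rpl29, Rpl7a, Rpl13, Rps15a, Rpl21, Rpl9, Rps6, Rpl10 and Rps27, and the paralogs Rpl3l, Rpl10l, Rpl39l and Rpl22l1. The line itself is low only for a ribosomal protein gene. Of all detected genes with a length 83.6%, and of all genes with one 91.9%, lay below it. Rpl29 lay also below the median of all detected genes with a length, and Rpl3l, Rpl10l and Rpl39l were not detected. Rpl22l1 was just inside the line at 5.46 and Rpl17 just outside it at 5.60. By the same distance on the values as deposited, Rps15a and Rpl22l1 were not low, while Rpl17 and Rps27l were. Rps15a has 6270 bases of annotated exon and a coding transcript of 640 bases. By the length of the coding transcript Rps15a stayed low and Rpl22l1 did not. Rpl29 had 228, 253, 189 and 212 reads in libraries 1 to 4. Rpl7a, a large subunit protein, had 600, 622, 266 and 412 reads. Rps6, the ribosomal protein phosphorylated by S6 kinase, had 724, 1017, 463 and 677 reads. In each of these genes the 4 libraries lay close together compared with the distance to the other members. The SD of the low core genes over libraries had a median of 0.20 on the log2 scale.

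The low core genes shared more of their sequence with other genes than the other core genes did. A shared window was a stretch of 50 bases of the coding transcript found without mismatch in a transcript of a gene elsewhere in GENCODE M21, on either strand. In the low core genes the median share of such windows was 80.7%, with a range of 49.1% to 98.6%. In the 67 other core genes it was 53.3%, with a range of 0 to 90.1%. A copy was another gene of under 10000 bases that held at least 20% of the windows. The low core genes had a median of 7.5 copies and 9 of 10 had at least 5, against a median of 2 copies and 15 of 67 in the others. The exception was Rps27 with 2 copies, at 98.6% shared windows. These are descriptions of genes ranked by level, with no test.

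Core genes with 3 or more copies had lower median levels than those with fewer, but genes with like sharing differed widely in level. The median level per kb was 10.12 for the 13 core genes without a copy, 10.40 with 1 to 2 copies, 8.08 with 3 to 4, 6.76 with 5 to 9 and 5.60 with 10 or more. The numbers of low genes in these bins were 0 of 13, 1 of 23, 0 of 17, 5 of 15 and 4 of 9. The 77 core genes share libraries and differ in length and base composition. Across them, Spearman's rho of the level per kb was -0.59 with the number of copies and -0.34 with the share of windows. It was 0.14 with GC content and -0.33 with exon length, by which this level is divided. For the deposited level, rho was -0.59 with copies, -0.38 with windows, 0.07 with GC content and -0.01 with exon length. Rps12, a small subunit protein, had 18 copies and 90.1% shared windows, yet 46125, 53755, 40949 and 54383 reads and a level of 9.78 per kb. Rps2 had 24 copies, the most of any core gene, at a level of 8.08. Rpl3, with 85.6% shared windows, stood at 9.79. How the reads of shared windows were assigned is not given in the sources used here, and the part of such sharing in the low levels was not tested.

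**Figure D2:**
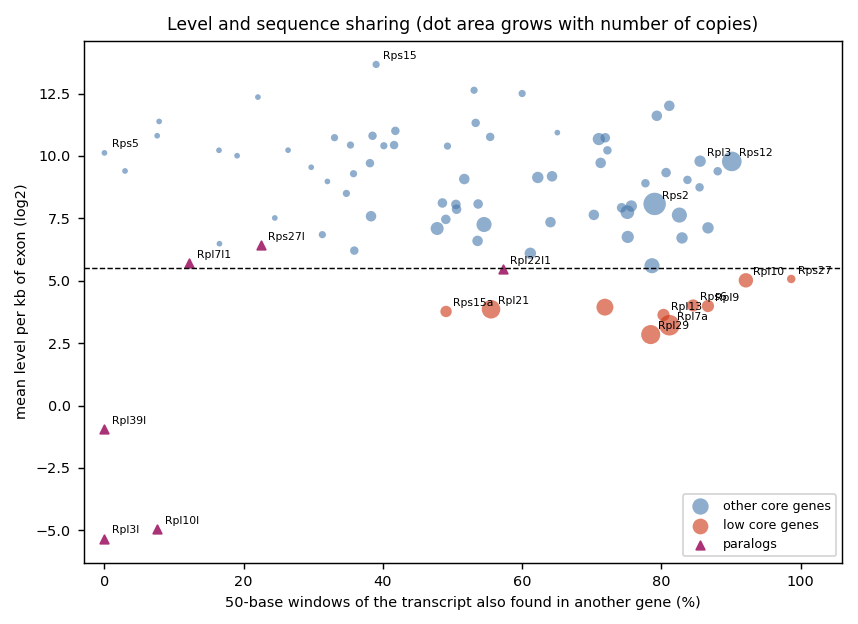
Mean level per kb of exon (log2, vertical axis) against the percentage of 50-base windows of the coding transcript that another gene also holds (horizontal axis), for core genes (dots, area growing with the number of copies) and paralogs (triangles). The dashed line is the limit for low members. The low core genes lie at 49.1% or more, where 39 other core genes also lie.

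For 8 members, a copy held more reads than the gene itself. Of 323 copies of core genes, 94 had an entry of their own in the table. Rpsa, a laminin-binding protein of the small subunit, had 12100, 34291, 25861 and 27150 reads in libraries 1 to 4. Its processed pseudogene Rpsa-ps10 had 122201, 305346, 223972 and 242327 reads. The ratio of pseudogene to gene was 9.15 ± 0.65 (SD, n = 4), with the pseudogene higher in 4 of 4 libraries. Rps27, one of the low core genes, had 3864 reads over the 4 libraries and Rps27rt, whose coding sequence is identical, had 23836. That ratio was 6.28 ± 1.03. Rpl13 lay below both Gm10071 and Rpl13-ps3, with ratios of 3.75 ± 0.59 and 2.52 ± 0.40. Further ratios were 2.74 ± 0.77 for Gm10335 over Rpl23a, 1.82 ± 0.58 for Rpl9-ps6 over Rpl9, 1.69 ± 0.47 for Gm17415 over Rpl7a and 1.34 ± 0.21 for Gm10268 over Rpl17. In all 8 genes the copy was above the gene in 4 of 4 libraries, and 5 of them belong to the low core genes. They were singled out after their values were seen.

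By name alone, 59 entries carried a member's symbol with the pseudogene suffix, for 31 members. Of these, 21 had no reads and 4 had more reads than their gene. Rpl21-ps1 was among the 4, with 5909, 8664, 5216 and 7667 reads against 1251, 1511, 1141 and 1487 for Rpl21, a large subunit protein. It lies at a position that GENCODE M21 gives to another name, so its name may differ between annotations. Not every low gene had a copy with many reads. The copies of Rpl29 with an entry held 25, 11, 3 and 30 reads, and Rps15a had 5 copies of which 0 had an entry. Its pseudogenes by name, Rps15a-ps1 and Rps15a-ps2, held 4 and 3 reads over the libraries. With the reads of its copies added, Rps27 moved to 7.92 per kb, Rpl13 to 6.49 and Rpl9 to 5.56, above the line for low members. Rpl29 came to 2.95 and Rps6 to 4.36. Rpl21 came to 4.02 with the copies found by sequence, and to 6.49, above the line, where Rpl21-ps1 and the other pseudogenes by name were added too. Whether reads of a copy's entry came from the copy or from the gene cannot be told apart here.

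**Figure D3:**
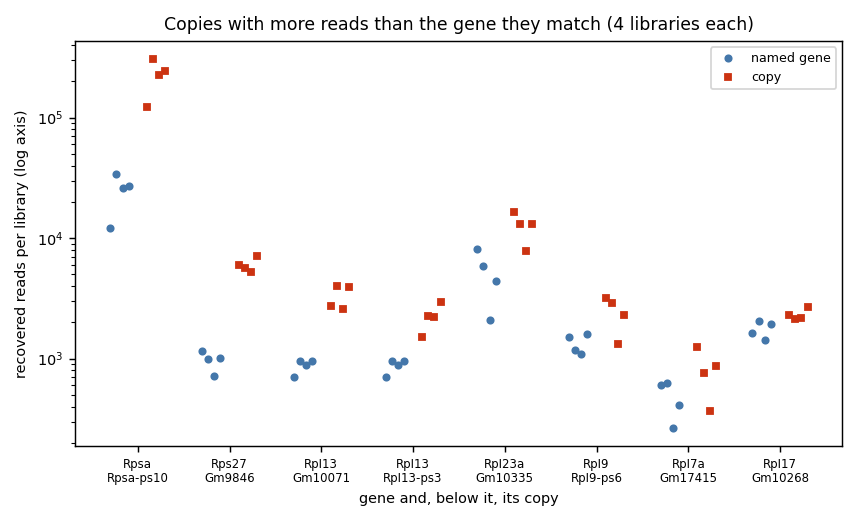
Recovered reads per library (log axis) of 7 members (circles) and of copies that hold more reads (squares), with 4 libraries each. Rpsa-ps10 lies highest, and in each pair the squares lie above the circles of the same library.

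The paralogs stood below their core genes in most pairs, and 3 were at or near 0. Rpl10l, a retrogene of Rpl10 known from the testis, had 0 reads in 4 of 4 libraries, while Rpl10 had 2198, 1964, 1233 and 1991. A floor of 3 reads over the group gives a level of Rpl10 per kb at least 1227-fold higher. Rpl3l, the form of Rpl3 known from heart and skeletal muscle, had 0, 0, 0 and 2 reads, and Rpl3 had 51612, 85591, 87561 and 88221. Their ratio per kb was 80982, and its exact 95% interval for counting error ran from 22418 to 668696. Rpl39l, known from the testis, had 34, 23, 27 and 0 reads, against 4058, 4116, 2605 and 3400 for Rpl39. Of the 50-base windows of Rpl39l, 0% were found in another gene.

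Rpl7 stood above Rpl7l1 by 5.61 ± 0.28 log2 units per kb (SD, n = 4). The difference was 4.16 ± 0.36 for Rps4x over Rps4l, which is listed as Rps4y2. GENCODE M21 types Rps4l as a transcribed processed pseudogene. It was 2.05 ± 0.15 for Rpl22 over Rpl22l1 and 1.53 ± 0.35 for Rpl36a over Rpl36al. The exception was Rps27l, a p53-inducible gene, which was higher than Rps27 in 4 of 4 libraries, with Rps27 minus Rps27l at -1.34 ± 0.37. Rps27 is the gene whose identical copy held 6.28 times its reads. A two-sided exact permutation of signs over libraries gave p = 0.13 for each of the 8 pairs, the smallest that 4 libraries allow, and 0.13 after adjustment over the pairs, so no pair could pass 0.05.

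**Figure D4:**
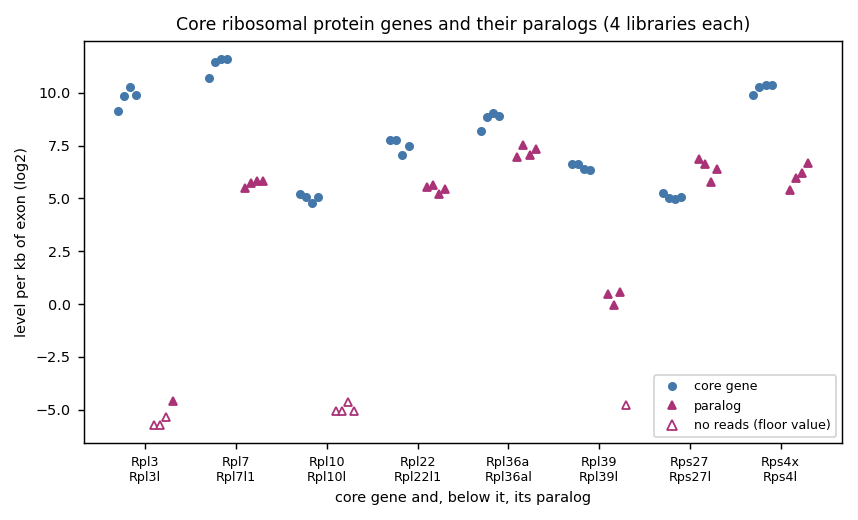
Level per kb of exon (log2, vertical axis) of 8 core genes (circles) and their paralogs (triangles) in each of 4 libraries. Open triangles mark libraries without a read, drawn at the table's floor. The paralog lies above the core gene only for Rps27 and Rps27l.

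The large subunit genes had a lower median than the small subunit genes per kb, by a margin that depended on the summary. The medians of the core genes were 8.62 ± 0.12 for the large and 9.15 ± 0.09 for the small subunit (SD, n = 4), a difference of -0.53 ± 0.12. As a mean the difference was -0.06, and on the values as deposited it was -0.05. Of the low core genes, 6 belonged to the large and 4 to the small subunit.

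Between libraries of the same kind, fewer of the ribosomal protein genes than of all genes passed a limit on the spread, on the values as deposited. An SD above 0.5 on the log2 scale was found for 5 of 80 detected members, or 6.25%, beside 40.5% of all detected genes. The 5 were Rps15, Rpsa, Rpl23a, Rplp2 and Rpl41. Among those that varied least were Rpl37 and Rps26, with SDs of 0.03 and 0.10. The count depended on library and scaling. Without library 1 it was 1, without library 2 it was 11, without library 3 it was 4 and without library 4 it was 13, beside 27.2%, 43.8%, 34.6% and 46.0% of the genes detected in the remaining libraries. With median-ratio scaling it was 22 of 80 (27.5%), near the 30.7% of all detected genes. That scaling adds -0.32, -0.11, 0.28 and 0.10 on the log2 scale to all genes in libraries 1 to 4. The median deposited level was 9.32 for the members and 5.09 for all detected genes. Neither the shares of variable genes nor the order of libraries below was matched for level.

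The members did not follow the other genes from library to library. Of the detected members, 42 of 80 (52.5%) were lowest in library 1, where 16.3% of all detected genes were lowest. In library 3 the figures were 32 members (40.0%) and 52.9% of all detected genes. The highest value was in library 1 for 13 members and in library 2 for 40, beside 53.6% and 23.6% of all detected genes. From library 1 to library 3 the median member differed by 0.15 and the median detected gene by -0.62 on the log2 scale, and by 0.75 for the members after median-ratio scaling. Library 3 exceeded library 1 by more than 0.5 for 22 members (27.5%), beside 11.5% of detected genes. Rpsa read 8.70, 10.21, 10.20 and 9.85 on the deposited log2 scale in libraries 1 to 4, and Rplp2 read 11.08, 12.39, 12.46 and 12.02. Both were lowest in library 1. In the other direction 12 members differed by more than 0.5, beside 55.3% of detected genes. Rpl23a read 8.12, 7.66, 6.57 and 7.22, the reverse order of Rps15 between these libraries. The 22 members had a median GC content of 55.2% and a median deposited level of 11.27, and the 12 members had 48.8% and 8.85. Across the core genes, Spearman's rho of library 3 minus library 1 was 0.54 with the deposited level and 0.30 with GC content. Library 3 also had the fewest reads. Markers of other cell types moved between the same libraries. The log2 of the summed linear levels of the adventitial fibroblast markers was 9.42, 9.16, 6.17 and 5.76 in libraries 1 to 4. Of these markers, 5 of 5 were higher in libraries 1 and 2 than in libraries 3 and 4. For the leukocyte markers the log2 of the sum was 5.89, 5.47, 3.76 and 3.72, with 4 of 5 so ordered and 2 without reads in library 3. On the same scale, the endothelial markers summed to 5.54, 4.90, 5.43 and 4.00. The smooth muscle markers summed to 13.54, 13.14, 14.59 and 14.86, and 7 of 7 were higher in library 3 than in library 1. The part of these markers, level, base composition and depth in the members' differences was not tested.

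**Figure D5:**
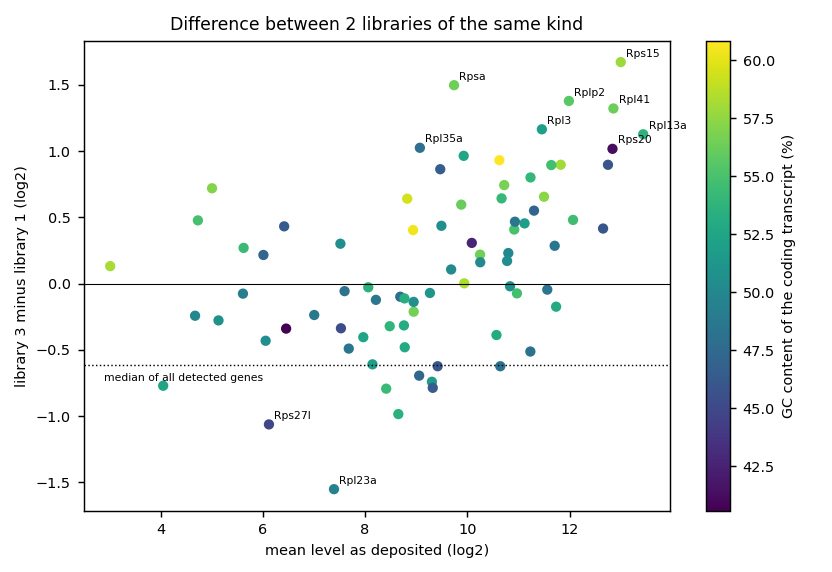
Library 3 minus library 1 (log2, vertical axis) against the mean deposited level (log2, horizontal axis) for the 80 detected members, coloured by GC content. The dotted line is the median of all detected genes at -0.62. Rps15 and Rpsa lie highest and Rpl23a lowest.

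All genes of the other translation lists that were found in the table, members aside, were detected. Of the ribosomal genes outside the name rule, Rack1, a scaffold protein of the small subunit, had a deposited log2 level of 11.32 ± 0.22, and Fau, a fusion of a ubiquitin-like protein with a ribosomal protein, had 10.15 ± 0.54 (SD, n = 4). The 18 elongation factors and other genes with TOP mRNAs had a median of 9.23, led by Vim at 14.03, Eef2 at 12.71 and Eef1a1 at 12.65. The 22 initiation factors had a median of 8.45, the 32 ribosome biogenesis genes 6.22, and 18 of 19 RNA polymerase I genes that were found 5.98. All of these were detected, and the median of all detected genes was 5.09 on the same deposited scale. Ncl, the nucleolar protein nucleolin, led the biogenesis genes at 11.78. Ubtf, the polymerase I factor that opens ribosomal DNA, led its list at 9.71. The 15 genes that control translation of TOP mRNAs had a median of 5.44, with Cnbp at 9.59, Rheb at 8.53 and Larp1 at 8.20. These medians are not divided by gene length. Per kb the medians of the 5 lists, in the order given, were 7.67, 6.45, 4.14, 4.51 and 2.78. The median of all detected genes with a length was 2.96 per kb, so the control genes then lay below it. The median share of 50-base windows held elsewhere was 24.1% or less in these 5 lists, and 83.5% for the ribosomal genes outside the name rule.

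The TOP motif was searched as a C followed by at least 4 pyrimidines beginning within 5 bases of the RefSeq start, on the gene's strand. Promoters on GRCm38.p6 were found for 63 members. The motif was present in 26 of 57 core genes (45.6%), beside 18.3% of 32851 promoters. It was present in 4 of 7 low core genes and in 22 of 50 others. The windows below run from 15 bases before the start to 25 after it, from RefSeq. They are shown because they set low beside high genes, and genes with a match beside genes without one. Capitals mark the motif.
Rpl7a (chr2:26910792-26910831, plus strand): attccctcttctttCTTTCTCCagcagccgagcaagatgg
Rps27 (chr3:90213624-90213663, minus strand): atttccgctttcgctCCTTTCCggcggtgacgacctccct
Rps6 (chr4:86857343-86857382, minus strand): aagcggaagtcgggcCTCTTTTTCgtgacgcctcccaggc
Rpl13a (chr7:45128721-45128760, minus strand): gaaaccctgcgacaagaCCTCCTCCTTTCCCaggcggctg
Rpl13 (chr8:123102335-123102374, plus strand): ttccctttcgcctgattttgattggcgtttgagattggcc
Rpl41 (chr10:128549144-128549183, minus strand): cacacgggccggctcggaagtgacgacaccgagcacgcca

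Rpl7a, Rps27 and Rps6, at the low end, carried the letters of the motif, as did Rpl13a near the top. Rpl13 at the low end and Rpl41 near the top had no match beginning within 5 bases of the start. The printed window of Rpl13 does hold such letters, but farther before the start than the search allowed. A match is a description of letters, and a shift of the annotated start would change it. A missing match therefore does not show that the mRNA lacks the motif.

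Of the members, 18 overlap another gene of the table, among them Rpl13a with Flt3l and Rps2 with Snhg9. Libraries were strand-preserving, but no source used here gives the strand setting of the counting, and reads of overlapping genes cannot be told apart.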

How the data were processed

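Polyadenylated RNA of cultured aortic VSMCs was sequenced in 4 libraries made with a stranded mRNA kit, per the labels' protocols. The submitters' processing notes name TopHat, cutadapt, Trim Galore and the build GRCm38. The tool that counted reads, and how it treated reads with several matches, is not given in the sources used here. The authors deposited log2 values, which the numbers show to be scaled whole reads, with genes without reads set at 0.9 read. Reads were recovered from the step between values, and 99.7% to 99.8% of values lay within 0.05 read of an integer. What 1 recovered read counts is not stated, and intervals and floors (3 reads) cover counting error only.

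Exon lengths (union of exons) and transcripts came from GENCODE M21. Copies were matched to the table by symbol and position, or by sharing 80% of both spans. The name search for pseudogenes was planned. The sequence search for copies was added later, and its span limit of 10000 bases was set after the matches had been seen, because genes that merely host a copy were among them. The matching by span was added after a renamed pseudogene was found. Med21, a host gene, still counts as a copy of Rps26. No result is tested between groups, and the pairs were tested by an exact permutation of signs, two-sided, over 16 arrangements with Benjamini-Hochberg adjustment. Members and lists were chosen with earlier results of these data known.

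Genes were named by a rule, the 8 highest and 12 lowest members per kb, the 6 most and 3 least variable, the pairs, the ribosomal genes outside the name rule, the stalk genes and the 3 highest genes of each list. Others were named after their values were seen, and a few genes are not reported here. Read recovery, the window search and the permutation test were tested on simulated data. Tools were pandas 2.3.3, numpy 2.4.6 and scipy 1.17.1 under Python 3.11.15, with figures from matplotlib 3.10.9.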

Additional observations from a re-analysis of the deposited data

Results flagged for a closer look

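In 4 of 56 named genes, 1 library stood apart from the other 3, which chance gives for about 1 in 20 groups. Rpl21 was lowest in library 1, at a deposited log2 value of 5.43. Rpl7 was lowest in library 1, at 12.12. Ubtf was also lowest in library 1, at 9.21. Rpl39l was lowest in library 4, at the floor of -5.03, where it had no reads.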

How the results depend on the processing

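Of 140 alternative values, 129 stayed within the spread between libraries or within 1.5 times the count, 11 moved and 0 reversed. The count of variable members moved most, to 0 with an SD above 1, to 22 with median-ratio scaling, and to between 1 and 13 when 1 library was left out. The large minus small subunit difference was -0.064 as a mean and -0.054 as deposited. List means in place of medians, on the deposited scale, were 8.86 for the ribosomal genes outside the name rule and 2.87 for the paralogs. They were 9.87 for the elongation factors and other TOP genes and 5.97 for the control genes. The cause was not tested. The low members numbered 11 to 20 over the alternatives, and 8 of 14 were low in all but the one with 4 log2 units. They were the core genes Rpl10, Rpl29, Rpl7a, Rpl9 and Rps6 and the paralogs Rpl10l, Rpl3l and Rpl39l. The line was drawn anew from the members' median in each alternative. Of the low core genes, 9 had at least 5 copies under each of 4 copy rules, against 14 to 16 others. The members below a copy numbered 6 to 10. These copy rules, the lengths of the coding transcript and the added reads of copies and pseudogenes were chosen after seeing the data. No paired analysis was possible because all libraries belong to 1 group. Depth limits the paralogs with few reads.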
